A study of Mus musculus with 10 samples.

Results

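Embryoid bodies (EBs) grown from mouse ES cells in which Pdx1 and Ngn3 had been switched on were compared with islets, the hormone-producing tissue that those factors help to form. The comparison used 4 of the 10 arrays of the series, chosen by their labels: 2 arrays of Dox(+) EBs and 2 arrays of whole islet tissue. The Dox(+) EBs came from Ainv18 ES cells that carry a doxycycline-inducible bicistronic Pdx1-IRES-Ngn3 cassette (tet-pdx1/ngn3) at the hprt locus. Activin A (50 ng/ml) was given from day 2, BMP4 (50 ng/ml) and bFGF (10 ng/ml) were added on day 4, Dox (1 µg/ml) was given from day 4, and RNA was taken on day 13. The islets were untreated, and the labels give neither strain, age nor the number of animals. Dox(−) EBs had the same cells and factors without Dox, and they, βTC6 cells (a mouse insulinoma line, bTC6 in the plots) and E15.5 embryonic pancreas, with 2 arrays each, entered the same fit and are quoted beside a result as the geometric mean of their 2 arrays.

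Several points limit these groups as models. For the EB arrays the source label names Pdx1-IRES-Ngn3, as the study does, while the description and the tissue label name activated Notch4. The study calls the islets adult, but the heading of its supplementary gene table puts them at E15.5. The labels number biological replicates without saying whether they were separate cultures or dissections, and the spread behind each p-value, which is that between these arrays alone, may therefore be technical. EB and islet arrays came from slides with separate ranges of numbers, and for every difference given here the effect of tissue and that of array batch cannot be told apart. In bulk RNA, fewer cells of a type and less RNA per cell cannot be told apart.

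Pdx1 is the homeodomain factor that specifies the pancreas and later keeps β cells functional, and Ngn3 (Neurog3) is the basic helix-loop-helix factor that commits progenitors to the endocrine lineage. Ngn3 acts for a short time, upstream of Neurod1, Pax4, Insm1, Isl1 and Pax6, and the same factor also starts the hormone-producing cells of the gut. Adult islets hold mainly β cells, with α, δ and PP cells, and mature β cells combine glucose uptake, a K-ATP channel and a large pool of insulin granules.

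A level is the background-subtracted spot intensity divided by the median of its array, so that the median probe of each array is 1, with 0.27 as the lowest level allowed. Of 34967 discovery probes, 73.7% and 74.3% were above background in Dox(+) EBs and 69.5% and 71.8% in islets, and 61 to 77 probes per array were saturated. Replicate log2 levels correlated at 0.995 in Dox(+) EBs and 0.994 in islets. The probes named for the induced genes read low in every group. Pdx1 was at 0.27 on both Dox(+) arrays, at background, and at 0.524 and 0.482 in islets, Neurog3 was at 0.447 and 0.557 against 0.431 and 0.547, and Notch4 was at 0.877 on the 1 Dox(+) array with a value against 1.14 and 1.12. Even in βTC6 cells the Pdx1 probe was at 0.681, so it says little of Pdx1 expression anywhere, and whether any of the 3 probes reads the cassette is not given in the sources used here. No probe is named for Ins1, Ins2 or Iapp alone. The study's supplementary gene table gives a joint reading for Ins1 and Ins2, lower in Dox(+) EBs than in islets. Probes with several symbols entered no gene list here, so the hormone counts leave insulin out. The islet arrays carried the islet markers Gcg, Sst, Ppy, Nkx6-1, Slc2a2 and Ucn3 at high levels. They also carried strong signal of acinar cells, the enzyme-making cells of the exocrine pancreas. Over 19 acinar genes with a value on every array, the summed level was 3940 and 3430 in islets, 89.7 and 87.9 in Dox(+) EBs and 1870 and 1790 in E15.5 pancreas. Acinar probes saturated in islets, Cela3b, Amy2a5 and Cel among them, make the islet sums lower bounds.

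The promoters of 5 genes at the far ends of the comparison are shown: Gip, Cck and Sct, gut hormone genes that stood highest in Dox(+) EBs over islets, and Ucn3 and Slc2a2, β-cell genes that stood far lower. Each run covers 250 bases before to 50 after the RefSeq gene start (GRCm38.p6, 5′ to 3′ on the gene's strand), with every match of CANNTG, the E-box letters read by basic helix-loop-helix factors, in capitals. The windows are chr11:96024295-96024594 (plus strand) for Gip, chr9:121495645-121495944 (minus) for Cck, chr7:141279084-141279383 (minus) for Sct, chr13:3945300-3945599 (minus) for Ucn3 and chr3:28697653-28697952 (plus) for Slc2a2.
Gip: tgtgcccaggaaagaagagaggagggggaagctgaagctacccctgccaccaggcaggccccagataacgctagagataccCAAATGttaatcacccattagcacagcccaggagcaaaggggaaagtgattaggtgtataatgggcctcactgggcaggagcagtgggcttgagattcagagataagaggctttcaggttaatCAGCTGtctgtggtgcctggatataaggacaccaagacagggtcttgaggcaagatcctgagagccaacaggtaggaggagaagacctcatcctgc
Cck: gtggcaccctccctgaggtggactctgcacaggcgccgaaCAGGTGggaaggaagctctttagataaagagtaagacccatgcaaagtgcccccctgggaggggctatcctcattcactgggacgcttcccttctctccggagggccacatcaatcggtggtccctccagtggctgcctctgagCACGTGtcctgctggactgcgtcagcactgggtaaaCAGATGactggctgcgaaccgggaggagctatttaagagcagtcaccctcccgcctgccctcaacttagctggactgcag
Sct: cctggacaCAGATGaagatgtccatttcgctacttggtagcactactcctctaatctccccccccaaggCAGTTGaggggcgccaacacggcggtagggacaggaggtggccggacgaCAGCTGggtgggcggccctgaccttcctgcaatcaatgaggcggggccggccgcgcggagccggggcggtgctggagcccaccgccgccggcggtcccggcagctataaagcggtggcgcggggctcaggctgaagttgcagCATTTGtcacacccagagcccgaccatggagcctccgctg
Ucn3: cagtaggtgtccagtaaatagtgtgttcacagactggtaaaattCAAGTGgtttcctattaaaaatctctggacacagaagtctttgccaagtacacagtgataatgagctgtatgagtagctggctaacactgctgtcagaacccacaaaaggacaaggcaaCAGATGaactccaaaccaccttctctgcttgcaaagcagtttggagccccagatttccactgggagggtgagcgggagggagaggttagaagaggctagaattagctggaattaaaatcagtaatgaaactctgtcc
Slc2a2: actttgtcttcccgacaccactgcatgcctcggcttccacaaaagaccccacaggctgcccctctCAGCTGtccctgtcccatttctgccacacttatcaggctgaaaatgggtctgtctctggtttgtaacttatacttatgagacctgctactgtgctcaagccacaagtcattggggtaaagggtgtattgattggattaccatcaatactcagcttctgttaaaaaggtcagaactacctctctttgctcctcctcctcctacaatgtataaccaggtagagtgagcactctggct
CANNTG, which reads the same on both strands, occurred 2 times in the Gip window, 3 times in that of Cck, 4 times in that of Sct, 2 times in that of Ucn3 and 1 time in that of Slc2a2. The same letters are present in 72.3% of 32851 windows of this length around RefSeq gene starts, so their presence does not set these promoters apart. TAATTA, a homeodomain core that is also the same on both strands and cannot overlap CANNTG, was in none of the 5 windows and is in 5.29% of all windows. A match is a description of letters and not a site of binding.

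Most transcripts differed between the EBs and the islets. A probe entered the test if both arrays of at least 1 of the groups read it above background, which 26709 probes did, and a gene was called higher or lower in Dox(+) EBs where limma gave an adjusted p under 0.05. With 1 probe for each of 15155 named genes, 43.8% were higher and 30.7% were lower in Dox(+) EBs, which makes 74.5% in either direction (33.4% of probes were lower, 38.3% higher and 71.7% either). A gene list with a share of calls near 74.5% therefore shows no more than all genes do. The median log2 difference (Dox(+) EBs minus islets) over all genes was 0.19 and the median size 0.74. Of the genes called, 3377 were at least 2-fold higher and 2371 at least 2-fold lower, 372 and 320 passed 10-fold, and 6 and 28 passed 100-fold. The 95% interval of the difference stayed within 2-fold for 6917 genes (45.6%).

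**Figure D1:**
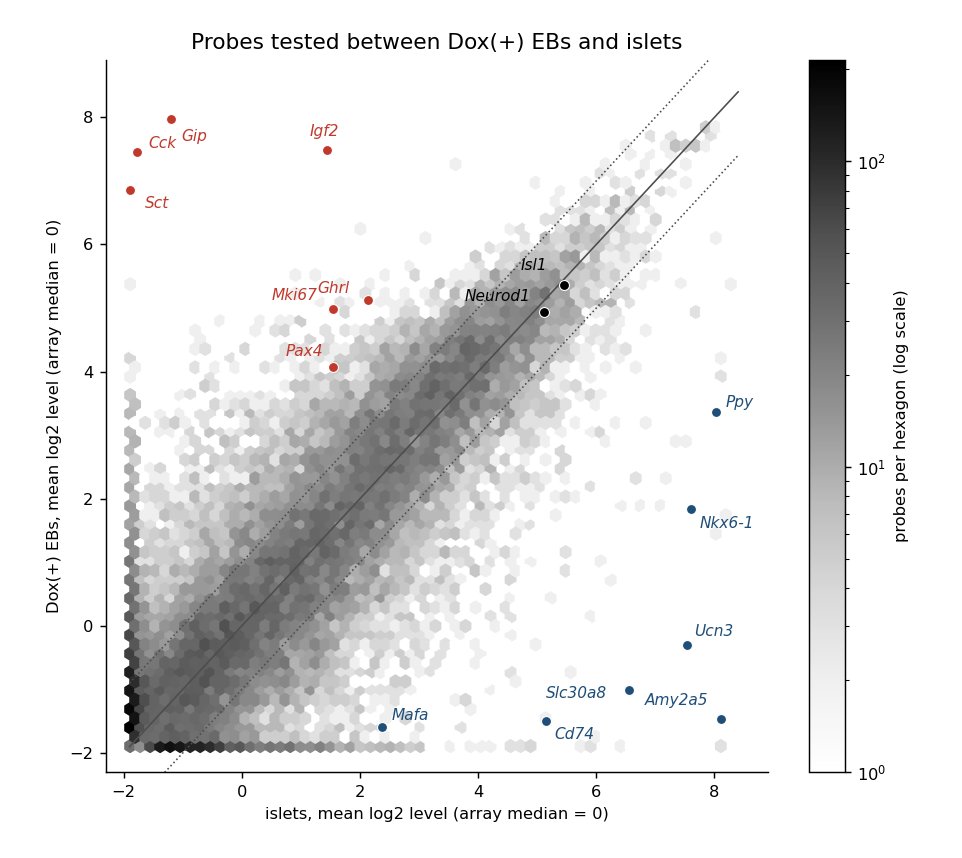
Mean log2 level of each tested probe in islets (x axis) and Dox(+) EBs (y axis), where 0 is the array median, the shade is the number of probes per hexagon on a log scale, the solid line marks equal levels and the dotted lines a 2-fold difference. Most probes lie between the dotted lines, Gip, Cck, Sct and Igf2 lie far above it and Amy2a5, Ucn3, Nkx6-1 and Ppy far below, while Neurod1 and Isl1 lie on it.

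The largest excess in Dox(+) EBs was that of 3 gut hormone genes. Cck, which encodes the hormone that triggers gallbladder contraction and enzyme release, read 194 and 160 on the Dox(+) arrays, 1 of them saturated, and 0.317 and 0.27 on the islet arrays, at background (at least 601-fold higher, limma adjusted p = 7.47e-13). Gip, the incretin of intestinal K cells, was saturated at 243 and 259 in Dox(+) EBs against 0.413 and 0.459 (at least 577-fold, adjusted p = 6.02e-12 from limma). Sct, which encodes secretin, was at 118 and 115 against the lowest level allowed on both islet arrays (at least 431-fold). In none of the 3 did the groups come near each other. Cck and Sct were also high in βTC6 cells, at 366 and 401, whereas Gip was at 0.547 there and at 3.62 in E15.5 pancreas.

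The other genes among the 12 largest excesses encode no hormone of the islet or gut. Sox11, a transcription factor of embryonic neural and mesenchymal cells, was at 36.9 and 41.7 against background (at least 145-fold). Another Sox11 probe, brighter on average, gave 78.2-fold, and the remaining one did not pass the test (1.12 and 1.20 against 1.06 and 2.33, adjusted p = 0.182 from limma). Peg10, an imprinted retrotransposon-derived gene, was at least 145-fold higher, Hmga2, a chromatin protein of embryonic growth, at least 74.2-fold, and Igfbp2, an IGF-binding protein, 107-fold. Gdf6, a BMP family ligand, was at 28.9 and 27.4 against background on both islet arrays (at least 104-fold), and it was at 0.965 in Dox(−) EBs. Mdk, which encodes the growth factor midkine, was at least 96.6-fold higher, Flrt3, a membrane protein of FGF signalling and axon guidance, 96.1-fold, and Plppr3, a membrane protein of neurons, 87.0-fold. Rpl29, a ribosomal protein gene with 2 probes, was at 162 and 129 against 1.41 and 1.68 at the 1 probe given here (at least 94.0-fold). Its level in βTC6 cells was 3.35, while it was 250 in Dox(−) EBs and 224 in E15.5 pancreas, so this probe was low in the βTC6 and islet arrays and high in all others.

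**Figure D2:**
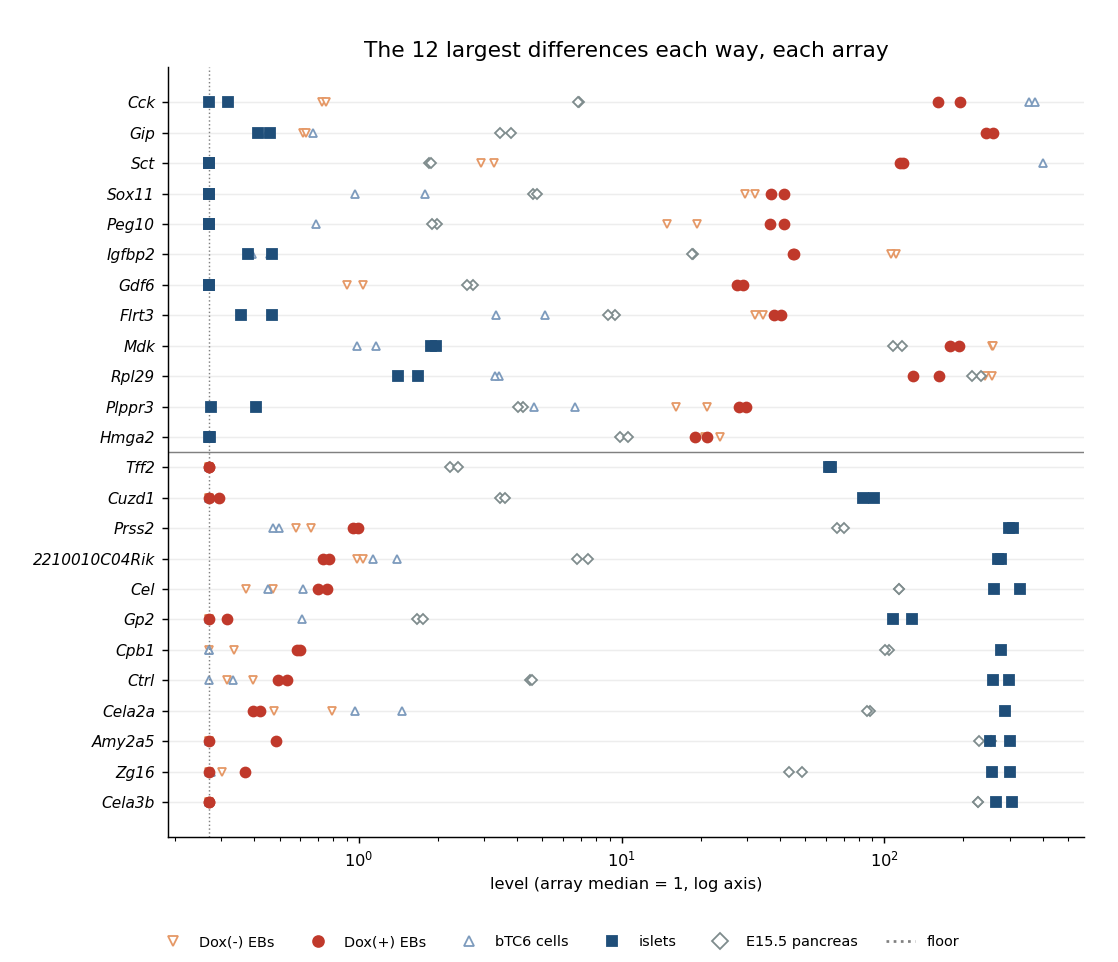
Levels (array median = 1, log axis) of the 12 genes with the largest excess in Dox(+) EBs (upper block) and the 12 with the largest excess in islets (lower block), 1 symbol per array for all 5 groups, with the dotted line at the lowest level allowed. The filled red circles of Dox(+) EBs and the filled blue squares of islets are separate in every row because genes with overlap were excluded. Of the 12 genes in the lower block, 9 are saturated in islets.

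Of the 12 largest deficits, most were genes of digestive enzymes and zymogen granules. Cela3b, an elastase gene, was at the lowest level allowed in Dox(+) EBs and saturated at 305 and 265 in islets (at least 1050-fold lower, adjusted p = 1.8e-13 from limma). Zg16 and Gp2, zymogen granule proteins, were at least 884-fold and 404-fold lower. The protease genes Ctrl, Cela2a, Cpb1 and Prss2, the amylase Amy2a5 and the lipase Cel were at least 311-fold lower each, with islets replicate 1 of Cela2a and replicate 2 of Cpb1 without a value. Cuzd1, another zymogen granule gene, was 310-fold lower by the 1 of its 2 probes given here. Tff2, a trefoil peptide of mucous and duct glands, was at least 231-fold lower. 2210010C04Rik was at least 365-fold lower. Over the acinar list 20 of 21 tested genes were lower, with a median log2 difference of -6.82. Rnase1, a ribonuclease, was at least 87.9-fold lower and Pnliprp2, a lipase-related gene, 101-fold lower. The exception was Ptf1a, which encodes a transcription factor of pancreatic progenitors and acinar cells: it read 4.22 and 3.95 against 3.17 and 3.49 (adjusted p = 0.133 from limma) and was at 31.9 in E15.5 pancreas. It was called higher without either βTC6 array and in a fit of the 4 arrays alone, which turned the acinar genes called higher from 0 to 1. Cpa1, a carboxypeptidase gene of acinar cells and early pancreatic progenitors, was at 13.1 and 17.4 against saturated levels of 285 and 242 (at least 17.4-fold lower). Of 5 tested Reg genes, secreted lectins of the acinar compartment, 4 were lower, Reg3d by 212-fold, Reg3b by at least 96.2-fold, Reg2 by 27.5-fold and Reg3a by 6.14-fold; the part of the acinar signal in this list was not tested. Reg4, a member made by enteroendocrine cells of the gut, was 6.66-fold higher, at 3.07 and 2.35 against 0.313 and 0.521.

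The islet hormones with a named probe were present in Dox(+) EBs, most of them below the islet level. Gcg encodes glucagon and read 41.1 and 41.9 on the Dox(+) arrays and 310, saturated, on the only islet array with a value (at least 7.47-fold lower, limma adjusted p = 2.8e-08). Ppy, which encodes pancreatic polypeptide, was at 10.4 and 10.3 against saturated levels of 291 and 233 (at least 25.2-fold lower). Sst, the somatostatin gene of δ cells, was at 120 and 103 against saturated levels of 291 and 286 (at least 2.59-fold lower). Their Dox(+) and islet levels did not overlap, and saturation hides how far above the EBs the islets lie. Ghrl, the ghrelin gene of fetal islets and stomach, went the other way, at 38.5 and 31.6 against 4.33 and 4.48 (7.93-fold higher, adjusted p = 7.63e-07 from limma), and was at 20.2 in E15.5 pancreas. Pyy, a peptide of fetal islets and gut L cells, was saturated on all 4 arrays, at 213 and 231 against 298 and 280, which gives no fold: its call (log2 difference -0.38, adjusted p = 0.0311 from limma) turned to 0.02 under quantile normalization and was lost when any 1 of the 4 arrays was left out. Of the 5 tested hormones, 4 were thus lower, Pyy under the median scaling alone, and 1 was higher (median log2 difference -1.37).

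The 95% interval of the difference stayed within 2-fold for 9 of 19 tested endocrine transcription factors, a share near the 45.6% of all genes for which it did. Neurod1, the target of Ngn3 that activates hormone genes, read 32.1 and 29.1 on the Dox(+) arrays against 34.2 and 35.3 (log2 difference -0.18, 95% interval -0.42 to 0.05, adjusted p = 0.142 from limma). Isl1, a LIM homeodomain factor found throughout the islet, read 44.6 and 38.2 against 43.3 and 44.3 (-0.09, -0.31 to 0.14). The 2 groups overlapped for Isl1 and lay side by side for Neurod1. Myt1 (log2 difference 0.14, interval -0.22 to 0.51), Rfx3 (0.06, -0.18 to 0.30) and Irx2 (-0.05, -0.53 to 0.43) also had intervals within 2-fold and did not pass the test. Myt1 is a zinc finger factor induced with Ngn3, Rfx3 a factor of cilia and islet maturation, and Irx2 an Iroquois factor of α cells. Neurog3 and Pou3f4 had intervals within 2-fold too, but both lay near or below the array median in both groups. Nkx2-2, needed for α and β cells, and St18, a Myt1 relative, were called lower but stayed within 2-fold, at 1.55-fold and 1.57-fold.

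The remaining factors fell on either side. Nkx6-1, which sets β-cell identity, had the largest deficit of the list, 54.3-fold, followed by Mafa, the driver of insulin transcription in mature β cells, at 0.376 and 0.296 against 5.54 and 4.88 (15.6-fold lower, adjusted p = 5.35e-08 from limma). Pax6, Rfx6 and Insm1, factors of all endocrine cells, were 1.73-fold, 1.80-fold and 2.16-fold lower. Glis3, a zinc finger factor of β cells and ducts, was 4.33-fold lower by its brighter probe and 1.68-fold higher by the other, so its direction is unsettled. Pdx1 was called lower with Dox(+) EBs at background, a call lost with a lowest level of 1. Pax4, an early repressor that favours β and δ fates and declines in mature islets, was at 17.2 and 16.6 against 2.83 and 3.00 (5.80-fold higher, adjusted p = 1.81e-09 from limma). Hhex, a factor of δ cells and of early foregut, was 4.06-fold higher, and Irx1, an Iroquois factor of α cells, 3.57-fold higher. In all, 3 of 19 factors were higher, 9 lower and 7 not called, with a median log2 difference of -0.18.

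**Figure D3:**
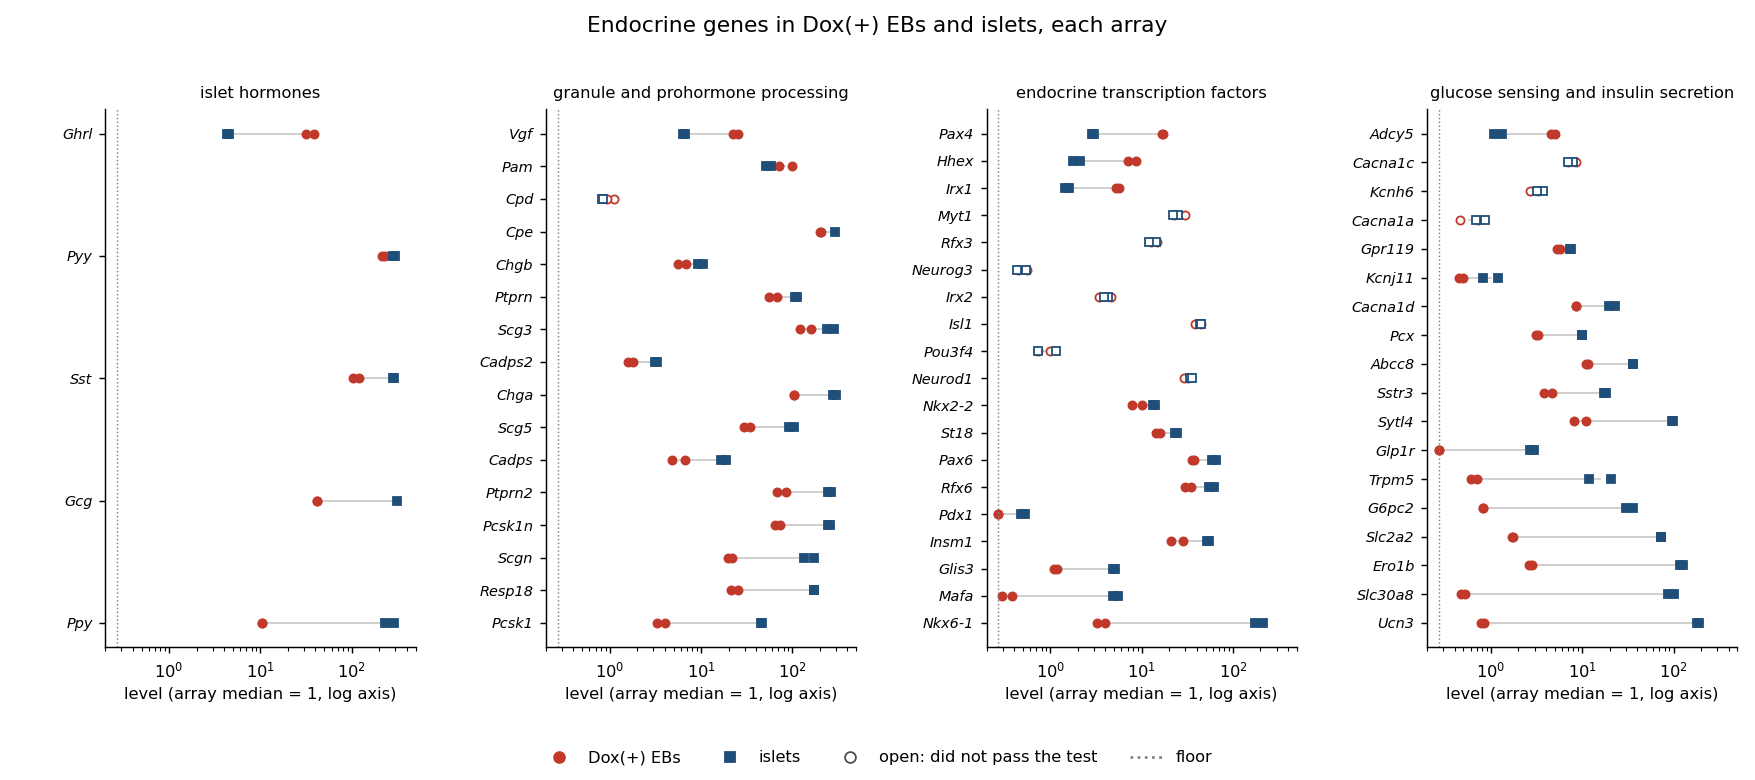
Levels (array median = 1, log axis) on each Dox(+) EB array (red circles) and each islet array (blue squares) for tested genes of 4 endocrine lists, ordered by difference within each panel, with open symbols for genes that did not pass the limma test and the dotted line at the lowest level allowed. Neurod1, Isl1, Myt1 and Rfx3 overlap or touch, Pax4, Hhex, Irx1 and Ghrl lie higher in the EBs, and Nkx6-1, Mafa, Ucn3 and Slc30a8 lie far lower.

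Most granule genes were present in Dox(+) EBs below the islet level. Of 16 tested genes of secretory granules and prohormone processing, 13 were lower, 2 were higher and 1 was not called, with a median log2 difference of -1.19. Chga, which encodes chromogranin A, was at 105 on both Dox(+) arrays and saturated at 300 and 276 in islets (at least 2.73-fold lower). Pcsk1, the convertase that makes the opening cut in proinsulin, had the largest measured deficit, at 3.99 and 3.33 against 46.0 and 45.0 (12.5-fold lower, adjusted p = 5.28e-10 from limma). Resp18, a luminal granule protein, was 7.44-fold lower and Scgn, a calcium sensor of endocrine cells, 7.41-fold lower, at 21.6 and 19.7 against 174 and 134. The granins and partners Scg5, Pcsk1n, Scg3, Ptprn2, Ptprn and Chgb were 1.60-fold to at least 3.68-fold lower, and the call of Chgb (adjusted p = 0.00594 from limma) was lost when all probes were tested (0.0525), with a lowest level of 1 (0.0538), without Dox(+) replicate 2 (0.0722) and without islets replicate 2 (0.0547). Cadps and Cadps2, priming factors of dense-core granules, were 3.08-fold and 1.90-fold lower. Cpe, the carboxypeptidase that trims prohormones, was saturated in both groups, so its call (log2 difference -0.53) has no fold, and it turned to 0.01 under quantile normalization. Pam, which amidates peptide hormones, was 1.53-fold higher, at 98.4 and 71.4 against 58.7 and 51.3. Vgf, a granin-like neuropeptide precursor, was 3.64-fold higher, by 4.24-fold and 2.45-fold at its other probes. Cpd, a related carboxypeptidase, did not pass the test.

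Vesicle release genes were split. Of 23 tested genes of regulated exocytosis, 8 were higher, 11 lower and 4 not called (median log2 difference -0.21). Unc13a, which primes vesicles for fusion, was at 5.17 and 5.25 against 44.3 and 39.8 (8.06-fold lower), and Rims2, an active zone scaffold, was 4.25-fold lower (its dim other probe was not called, at a log2 difference of -0.25). Syt4, a synaptotagmin, was 3.86-fold lower and Rab3b, a small GTPase of secretory vesicles, 2.68-fold lower. Cplx1, the neuronal complexin, was 5.41-fold higher and Rab3c, a close relative of Rab3b, 3.55-fold higher, so that these Rab3 members moved in opposite directions.

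The genes of glucose sensing had the lowest median reading of the 4 endocrine lists: 14 of 18 tested were lower, 1 was higher and 3 were not called, with a median log2 difference of -1.88. Islet readings of Sst, Gcg, Ppy, Chga and Cpe were saturated, so the hormone and granule medians may lie lower and the order is unsettled. The summed level of the glucose sensing list was 69.9 and 62.8 in Dox(+) EBs, 747 and 710 in islets, 32.9 and 35.2 in Dox(−) EBs and 86.1 and 84.1 in E15.5 pancreas. Slc2a2, the GLUT2 glucose transporter, was at 1.73 and 1.70 against 72.6 and 73.5 (42.7-fold lower, adjusted p = 1.58e-09 from limma). G6pc2, the islet glucose-6-phosphatase, was at 0.823 and 0.810 against 35.9 and 30.4 (40.5-fold lower), and Ero1b, which forms disulphide bonds in proinsulin, was 44.5-fold lower (11.6-fold by its other probe, from 25.6 and 24.3 in islets). Ucn3 and Slc30a8, the urocortin of mature β cells and the zinc carrier of insulin granules, were 226-fold and 190-fold lower. At the brightest probe of each, the EB levels of these 5 genes lay below 3 and those of the islets above 30 on every array.

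The other members of the list had smaller differences. Glp1r, the GLP-1 receptor, read background on the Dox(+) arrays against 2.94 and 2.67 (at least 10.4-fold lower), Trpm5, a cation channel, was 24.4-fold lower, and Sytl4, a granule docking protein, 10.2-fold lower. The K-ATP channel subunits Abcc8 and Kcnj11 were 3.20-fold and 2.12-fold lower, Abcc8 by 5.69-fold and 13.1-fold at its other probes, and the call of Kcnj11, at 0.493 and 0.442 against 0.812 and 1.20, was lost with a lowest level of 1. Sstr3, a somatostatin receptor, was 4.22-fold lower, Pcx, the pyruvate carboxylase of anaplerosis, 3.14-fold and Cacna1d, an L-type calcium channel, 2.47-fold. Gpr119, a lipid receptor of islets and gut endocrine cells, was within 2-fold (1.37-fold lower, at 5.69 and 5.25 against 7.60 and 7.38). Cacna1c (8.62 and 6.95 against 7.89 and 7.06, adjusted p = 0.723 from limma), Kcnh6 and Cacna1a did not pass the test, although 2 dimmer Cacna1c probes were 1.73-fold and 1.74-fold lower and a dimmer Cacna1a probe 1.85-fold lower. Adcy5, an adenylyl cyclase, was 3.96-fold higher, at 4.51 and 5.02 against 1.08 and 1.33. Of 21 tested potassium channel genes, 11 were lower, 4 higher and 6 not called (median -0.36). The calcium-activated channel Kcnma1 and its partner Kcnmb2 were 8.14-fold and 6.40-fold lower, Kcnip1 was 2.13-fold lower, and the A-type channels Kcnd2 and Kcnd3 were 2.93-fold and at least 2.46-fold higher from low levels. Kcnc1 was 2.16-fold lower by its brightest probe and at least 19.1-fold higher by another.

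β cells keep a set of widely used genes at low levels, among them genes of lactate handling, and this set read higher in the EBs than in islets. A set chosen for low levels in β cells favours that direction in advance. Of 17 tested members, 15 were higher, 1 was lower and 1 was not called, with a median log2 difference of 2.23. Pdgfra, a receptor of mesenchyme, was at 27.3 and 29.1 against 0.760 and 0.824 (35.6-fold higher, adjusted p = 1.13e-10 from limma). Cxcl12, a chemokine, was 21.8-fold higher, Igfbp4, an IGF-binding protein, 18.8-fold (its other probe 1.12-fold, not called), Lmo4, a LIM-only factor, 12.1-fold and Zyx, a focal adhesion protein, 5.14-fold. Rest, the repressor of neuronal and endocrine genes in other cells, was at 13.8 and 13.1 against 3.16 and 3.13 (4.27-fold higher), with 20.5 in Dox(−) EBs and 3.53 in βTC6 cells. The lactate dehydrogenase Ldha, the lactate carrier Slc16a1 and the low-Km hexokinase Hk1, named here after their values were seen, were 8.14-fold, 6.74-fold and 4.69-fold higher. Igf1 was the exception, 3.18-fold lower. The summed level of 15 members with a value on every array was 210 and 205 in Dox(+) EBs, 53.6 and 51.0 in islets and 89.6 and 87.3 in βTC6 cells. It was 297 and 303 in Dox(−) EBs and 274 and 276 in E15.5 pancreas, both above Dox(+) EBs. Collagen and matrix genes, markers of mesenchyme, moved with this set: their summed level was 703 and 708 in Dox(+) EBs against 216 and 213 in islets, and their part in it was not tested.

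Gut hormones and neuropeptides went both ways: 8 of 16 tested were higher, 6 lower and 2 not called (median 0.07). The lowest of them, Ucn3 (log2 difference -7.82), is also counted in the glucose sensing list. Beside Cck, Gip and Sct, Nts, the neurotensin gene of ileal endocrine cells, was at 15.4 and 22.7 against background (at least 69.3-fold higher). Penk, an opioid precursor, was 5.61-fold higher and Cartpt, a peptide of δ cells and neurons, 4.09-fold, at 33.5 and 34.2 against 8.51 and 8.05. Gast, the gastrin gene, was 1.40-fold higher and Nmu, neuromedin U, at least 1.53-fold higher from very low levels. On the other side Vip, a peptide of autonomic neurons, was at 0.350 and 0.276 against 19.7 and 18.0 (60.7-fold lower, adjusted p = 6.4e-11 from limma), and Grp, gastrin-releasing peptide, was 24.1-fold lower. Both were near background in βTC6 cells and at 0.550 and 0.506 in E15.5 pancreas, so islets were the only group with levels above 6. Tac1, the substance P gene, was 3.66-fold lower, and Gal and Npy were 1.57-fold and 1.26-fold lower. Insl5 and Tph1 did not pass the test.

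Genes of neuronal cytoskeleton were mostly higher in the EBs than in islets. Of 23 tested, 15 were higher, 6 lower and 2 not called, with a median log2 difference of 2.15. Their summed level (19 genes) was 460 and 409 against 169 and 195. In βTC6 cells it was higher still, at 593 and 605, and in Dox(−) EBs it was 79.9 and 87.4. Stmn4, a stathmin of neurons, was at 32.5 and 33.6 against 0.629 and 0.419 (64.4-fold higher), and Astn1, an adhesion protein of migrating neurons, was at 25.6 and 24.1 against 0.886 and 0.864 (28.4-fold). Nefl and Nefm, neurofilament subunits, were 22.5-fold and 11.5-fold higher, Stmn1, a stathmin also of dividing cells, 18.8-fold, and Dcx 9.63-fold (3.93-fold by its other probe). All of these but Stmn1 were at the lowest level allowed in Dox(−) EBs. The genes lower than in islets were Map2, Mapt, Nefh, Ncam1, Map1b and Sez6l2. Map2 was 2.01-fold lower by the probe used and at least 1.70-fold higher by the other (adjusted p = 0.0297 from limma), so its direction is unsettled. Ncam1 was chosen here after its values were seen: its probes ran from 56.8-fold lower (0.400 and 0.705 against 28.6 and 31.8) over 1.58-fold lower to 7.30-fold higher, and its direction is unsettled too.

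Neuronal transcription and RNA-binding factors counted 18 of 26 tested higher, 4 lower and 4 not called (median 1.50). Their summed level was 214 and 198 in Dox(+) EBs, 87.4 and 83.6 in islets and 258 on each βTC6 array. Nhlh2, a helix-loop-helix factor of postmitotic neurons, was at 13.0 and 11.2 against background (at least 44.8-fold higher) and at no more than 0.677 in the means of the 3 other groups. Sox4, a partner of Sox11, was at least 47.3-fold higher, Ebf3 and Ebf2, factors of neuronal differentiation, 28.9-fold and 7.96-fold, and Onecut2, a factor of ducts, liver and neurons, 7.41-fold. Of 33 tested axon guidance genes 22 were higher, 6 lower and 5 not called (median 1.10). Slit2, a repellent ligand, was at 24.3 and 27.4 against 0.904 and 0.779 (30.7-fold higher, adjusted p = 4.96e-11 from limma), Slit3 was 6.34-fold higher, Sema3c 5.48-fold, Efnb3 4.47-fold, Epha7 3.32-fold and the receptor Nrp2 at least 4.26-fold. The largest deficit of the list was that of Dcc, 31.3-fold lower at 0.566 and 0.688 against 11.1 and 34.5. Its other probe was at the lowest level allowed on all 4 arrays. In Dox(−) EBs, Slit2, Slit3, Sema3c and Epha7 were at 16.1, 8.11, 25.5 and 12.2. Glia of peripheral nerve were read by few probes: Sox10 and S100b, Schwann cell markers, were 6.66-fold and 6.07-fold lower, from 3.56 and 3.40 and from 2.17 and 2.12 in islets, Foxd3 and Mbp were 1.89-fold and 1.47-fold lower, Pmp22 was 2.54-fold and Gfap 1.99-fold higher, and 2 of 8 tested were not called (median -0.22). The call of Mbp (adjusted p = 0.0178 from limma) was lost without Dox(+) replicate 2 (0.177), islets replicate 1 (0.063) or islets replicate 2 (0.0684).

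Signalling genes of the embryo were described by pathway. Of 24 tested Notch pathway genes 15 were higher, 3 lower and 6 not called (median 0.83). Among targets of the pathway, Hey1 was at 14.3 and 13.9 against 1.95 and 1.86 (7.39-fold higher), Heyl was 3.34-fold and Nrarp 4.13-fold higher. The glycosyltransferase Mfng, which tunes ligand choice, was 6.41-fold higher and Rbpj, the DNA-binding partner of the Notch domain, 3.79-fold. Dlk1, a non-canonical ligand and imprinted gene, was 47.2-fold higher, at 59.5 and 61.4 against 1.36 and 1.21. Notch4 itself, named in a label, did not pass the test (log2 difference -0.37, adjusted p = 0.22 from limma), with no value on Dox(+) replicate 1, and the ligands Jag1, Dll3 and Dll4 did not pass either.

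Fgf, Bmp and Hedgehog genes were higher in 28 of 41 tested, lower in 9 and not called in 4 (median 1.26). After Gdf6, the ligand Bmp4 was at 17.2 and 16.3 against 0.649 and 0.574 (27.4-fold higher, adjusted p = 7.44e-11 from limma), and Bmp2 was at least 19.9-fold higher. Bmp7 was 6.15-fold higher by its brighter probe and 1.77-fold lower by the other. Smo, the Hedgehog signal transducer, was 14.4-fold higher and Hhip, a Hedgehog inhibitor and target, at least 7.53-fold higher. Wnt genes were more mixed, with 13 of 34 higher, 9 lower and 12 not called (median 0.22). The receptor Fzd2 was at least 38.5-fold higher, the inhibitor Sfrp1 19.5-fold (44.7 and 44.8 against 2.33 and 2.27) and the agonist Rspo3 at least 14.2-fold. The ligand Wnt3 was 10.3-fold lower, at 5.29 and 5.70 against 63.5 and 50.7, and the receptors Fzd4 and Fzd10 were 3.47-fold and 3.13-fold lower. Wnt3 lay between 4.64 and 6.46 in the 3 other groups, so the high level was that of the islets.

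**Figure D4:**
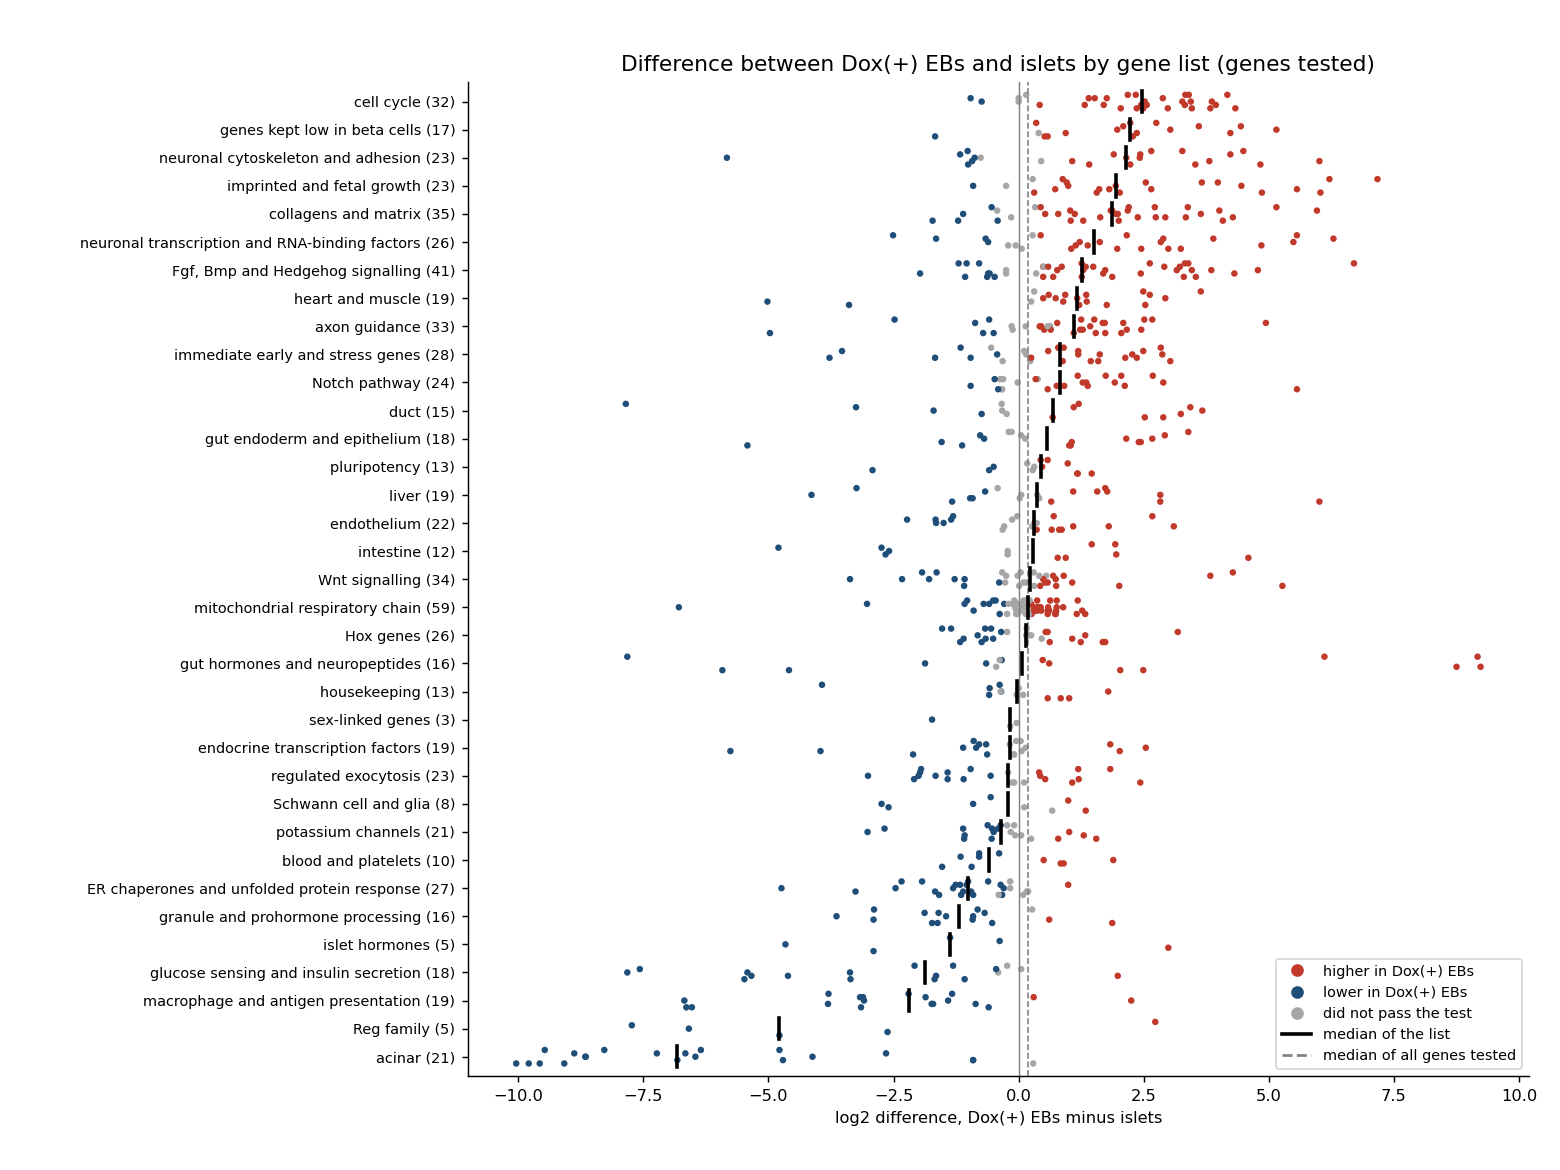
Log2 difference between Dox(+) EBs and islets (x axis) for the tested genes of 35 gene lists, with list sizes in brackets, red for genes higher in the EBs, blue for lower, grey for those that did not pass the limma test, a black bar at each list's median and a dashed line at 0.19, the median of all genes. Medians run from 2.47 for cell cycle genes to -6.82 for acinar genes, and most lists hold genes on both sides of 0.

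Genes of dividing cells were higher almost throughout: 27 of 32 cell cycle genes were higher, 2 lower and 3 not called, with a median log2 difference of 2.47. Mki67, the proliferation antigen, was at 31.1 and 32.0 against 3.12 and 2.72 (10.8-fold higher, adjusted p = 5.06e-11 from limma). The cyclins Ccnb2 and Ccna2 were 15.4-fold and 14.2-fold higher, the kinase Cdk1 10.0-fold, the helicase subunit Mcm5 11.0-fold and the factor E2f8 20.2-fold. The genes that were lower were the D cyclins Ccnd2 and Ccnd1, 1.95-fold and 1.67-fold, of which Ccnd2 is the main D cyclin of β cells. The sum over 30 genes of the list reached 477 and 440 in Dox(+) EBs, 197 and 184 in islets and 608 and 624 in Dox(−) EBs. It was 748 in each E15.5 pancreas array and highest in βTC6 cells, at 1670 and 1820.

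Imprinted and fetal growth genes were higher in 20 of 23 tested, with 1 lower and 2 not called (median 1.94). Igf2, the fetal growth factor, was saturated at 185 and 173 in Dox(+) EBs against 2.58 and 2.90 (at least 65.5-fold higher), and H19, its imprinted neighbour, was at 28.1 and 31.7 against 2.49 and 2.22 (12.7-fold, at least 28.7-fold by the other probe). Igf2bp3, an RNA-binding protein of fetal tissue, was at least 21.9-fold higher, Cdkn1c, an imprinted cell cycle inhibitor, 29.1-fold, and Nnat, neuronatin, 15.8-fold. Plagl1 was the only member that was lower. Of these genes, H19, Igf2bp3 and Cdkn1c were at higher mean levels in E15.5 pancreas, at 221, 10.2 and 91.2, than in Dox(+) EBs. Pluripotency genes were mixed: 7 of 13 tested were higher, 3 lower and 3 not called (median 0.44). Pou5f1, the Oct4 gene, was at 2.22 and 2.11 against 1.09 on the 1 islet array with a value (1.98-fold higher), and Sox2 was at least 2.75-fold higher from 0.714 and 0.770. Dnmt3b and Klf4 were 2.25-fold and 2.27-fold higher, Tcl1 was 7.59-fold and Tdgf1 1.41-fold lower, and Nanog did not pass the test. A dim second Dnmt3b probe was not called, and the call of Tdgf1 was lost without islets replicate 2 (log2 difference -0.25, adjusted p = 0.0568 from limma). Of 26 tested Hox genes 9 were higher, 11 lower and 6 not called (median 0.15). Hoxb2, an anterior member, was at 3.67 and 3.52 against 0.399 and 0.394 (9.06-fold higher), Hoxb4 and Hoxa10 were at least 3.33-fold and 3.19-fold higher from levels near 1, and Hoxc6, Hoxb5 and Hoxb13 were 2.25-fold, 2.15-fold and 1.77-fold lower.

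Connective tissue genes were also higher in the EBs, with 27 of 35 collagen and matrix genes higher, 5 lower and 3 not called (median 1.87). Fn1, fibronectin, was at 33.4 and 37.4 against 0.455 and 0.704 (62.5-fold higher), Col5a2 was 16.9-fold higher, Postn, periostin, 7.61-fold and Col3a1, a fibrillar collagen, 6.67-fold, at 151 and 165 against 23.8 and 23.6. Vim, the intermediate filament of mesenchyme, was 6.57-fold higher. Their summed level in Dox(+) EBs (703 and 708) was nonetheless below that of Dox(−) EBs (1920 and 1990) and of E15.5 pancreas (1240 and 1210). Endothelial genes were near balance: 10 of 22 were higher, 6 lower and 6 not called (median 0.30), and the summed level was 130 and 125 in Dox(+) EBs and 137 and 132 in islets. The general markers Kdr, at 20.3 and 19.7 against 22.6 and 21.1, and Pecam1, at 4.98 and 4.67 against 5.77 and 6.04, did not pass the test. Cldn5, Sox17 and Sox7, genes of embryonic vessels among others, were 8.57-fold, 6.37-fold and 3.48-fold higher, while Stab2, Robo4 and Emcn were 4.69-fold, 3.15-fold and 2.55-fold lower. Blood and platelet genes were low in both groups: 4 of 10 tested were higher, 6 lower (median -0.59), with Alas2 2.89-fold lower and Epor at least 3.72-fold higher, both from levels under 2, and Kit 1.87-fold higher. Hbb-y and Ppbp were 1.91-fold and at least 1.73-fold lower and Clec1b 1.78-fold higher.

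Immune genes were mostly lower in Dox(+) EBs. Of 19 tested genes of macrophages and antigen presentation 17 were lower and 2, Tapbp and Nlrc5, higher, with a median log2 difference of -2.20. The summed level of 20 genes of the list was 48.3 and 44.7 in Dox(+) EBs, below every other group. It was 276 and 257 in islets, 231 and 274 in βTC6 cells, 178 and 166 in Dox(−) EBs and 132 and 133 in E15.5 pancreas. The MHC class II genes were at the bottom: Cd74, the invariant chain, was at 0.439 and 0.289 against 37.5 and 33.4 (99.4-fold lower, adjusted p = 2.63e-10 from limma), and H2-Aa and H2-Eb1 were at background in Dox(+) EBs and at least 103-fold and 92.3-fold lower. The macrophage complement genes C1qa and C1qc were 14.0-fold and 8.98-fold lower, and Psmb8, an immunoproteasome subunit, 13.9-fold. Class II genes were also low in E15.5 pancreas, with Cd74 at 2.21, H2-Aa at 3.58 and H2-Eb1 at 0.827, whereas C1qa was at 21.2 there.

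**Figure D5:**
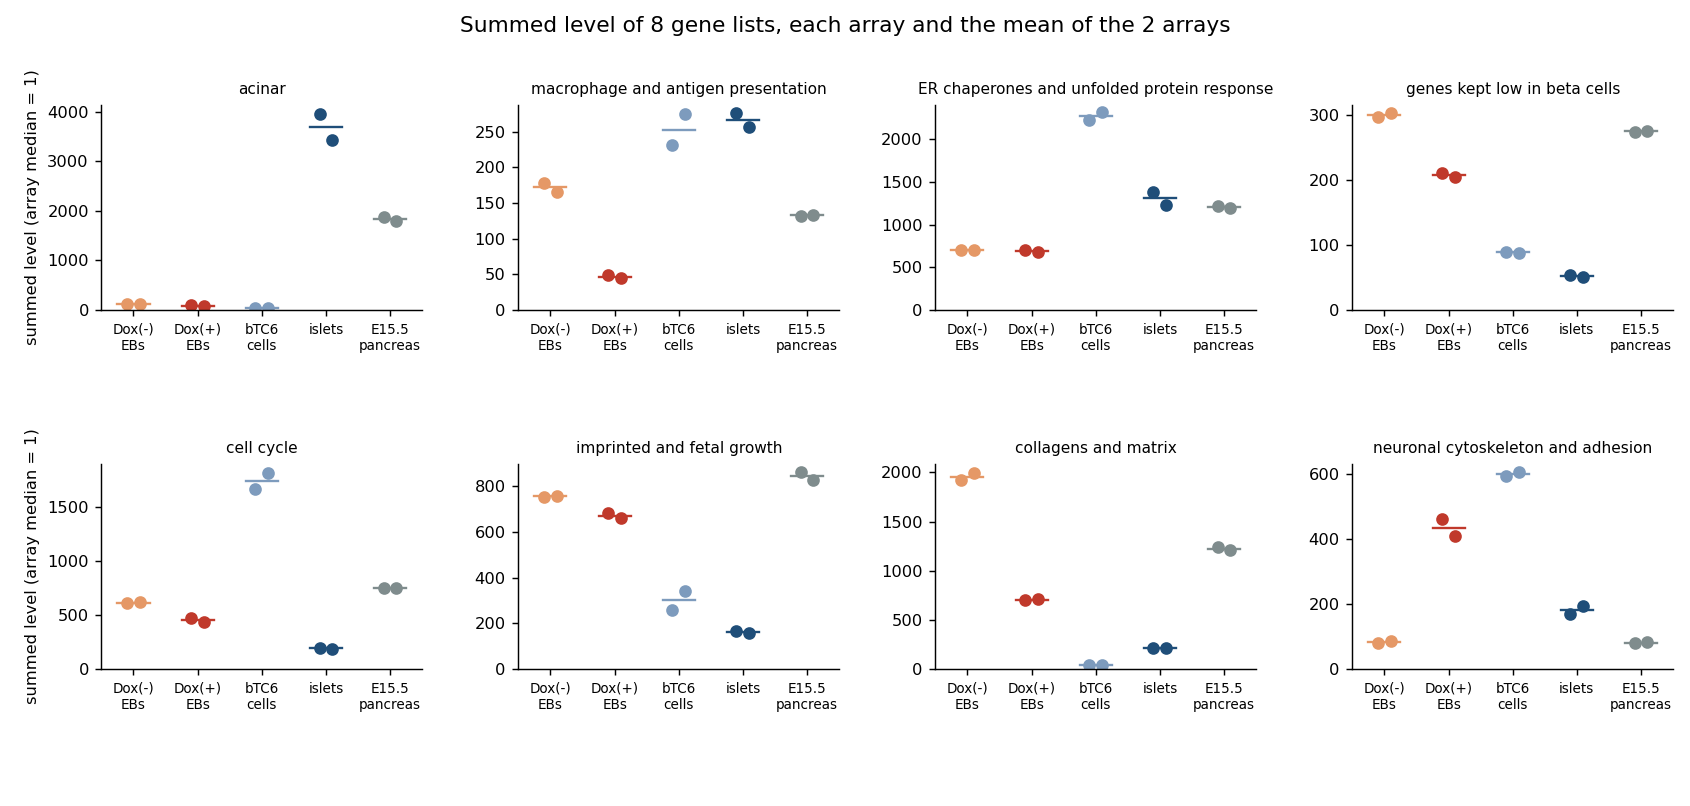
Summed level (array median = 1, linear axis from 0) of 8 gene lists on each of the 10 arrays, counting only genes with a value on every array, with 1 point per array and a line at the mean of the 2 arrays of a group. Dox(+) EBs lie below islets for acinar, immune and ER chaperone genes and above them for genes kept low in β cells, cell cycle, imprinted, matrix and neuronal genes.

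Epithelial genes gave no common direction. Of 15 tested duct genes 8 were higher, 4 lower and 3 not called (median 0.68): Sox9, a factor of ducts and progenitors, was at 3.37 and 2.91 against 0.27 and 0.314 (10.8-fold higher), Krt19, a duct keratin, was 9.44-fold and Slc4a4, a bicarbonate carrier, 12.8-fold higher (2.21-fold by another probe and not called by the remaining one, at a log2 difference of -0.32), while Muc1, a mucin of duct and acinar cells, was 9.53-fold lower. Of 18 tested genes of gut endoderm and epithelium 9 were higher, 5 lower and 4 not called (median 0.57). Krt8 was 10.5-fold higher, Cldn6, a claudin of embryonic epithelium, 7.55-fold and Grhl2 4.45-fold, whereas Cldn3 was 2.92-fold lower. Gata4, a factor of endoderm, was at 3.71 and 3.87 against 169 and 155 (42.7-fold lower). It was at 4.04 in E15.5 pancreas and 43.8 in βTC6 cells, so the islet level stood above all other groups. Liver genes were split (8 of 19 higher, 6 lower, 5 not called, median 0.37): Afp, α-fetoprotein, was 64.6-fold higher, at 24.3 and 18.6 against 0.371 and 0.292, while Alb, albumin, was 17.6-fold lower, at 0.463 and 0.373 against 7.66 and 6.98. Fgb and Apom were 7.11-fold and 7.10-fold higher, and Tat and Tdo2, amino acid enzymes, 9.47-fold and 2.52-fold lower. Among 12 tested intestine genes 6 were higher, 4 lower and 2 not called (median 0.28), with Tff3, a goblet cell trefoil peptide, 24.1-fold and Fabp2 at least 3.81-fold higher, and Olfm4, Fabp1, Vil1 and Dpp4 at least 27.8-fold, 6.67-fold, 6.32-fold and 6.01-fold lower.

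Genes of protein folding in the endoplasmic reticulum (ER), which secretory cells need in quantity, were lower in Dox(+) EBs: 20 of 27 tested were lower, 1, Pdia4, was higher and 6 were not called (median -1.01). Dnajc3 and Dnajb9, co-chaperones of BiP, were 26.6-fold and 9.56-fold lower, the former at 1.06 and 0.979 against 29.0 and 25.3 (adjusted p = 2.37e-10 from limma). Sdf2l1, Manf and Creld2, further genes of the unfolded protein response, were 5.07-fold, 3.18-fold and 2.39-fold lower, and Ssr4, a translocon subunit, 3.81-fold (1.11-fold by its other probe, not called). The call of Pdia4 was lost without Dox(+) replicate 1. Acinar genes, of cells that also make much ER, moved with this list, and their part in it was not tested: the ER list summed to 707 and 678 in Dox(+) EBs, 1380 and 1230 in islets, and 2220 and 2320 in βTC6 cells, where the summed acinar level was 32.6 and 30.6.

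Respiratory chain genes stayed close, with 47 of 59 tested within 2-fold by their interval, 26 called higher, 11 lower and 22 not called (median 0.18). The count of higher genes rose to 41 under quantile normalization. Uqcrc2 and Cox6c were 2.41-fold and 2.23-fold higher, Atp5o 1.85-fold higher and Ndufs3 2.11-fold lower (its other probe was not called, at a log2 difference of 0.21). Cox6a2, a muscle isoform, was 8.15-fold lower. Cox7a2 was far outside this range, at 0.751 and 0.641 against 79.1 and 74.2 (110-fold lower), and it was at 0.565 in Dox(−) EBs but 176 in βTC6 cells and 104 in E15.5 pancreas, so both EB groups stood apart from the 3 other groups at this probe. Among the immediate early and stress genes 17 of 28 were higher, 6 lower and 5 not called (median 0.83): Gadd45a, Jun, Hmox1 and Ier2 were 8.19-fold, 7.14-fold, 4.82-fold and 4.38-fold higher, and the chemokine Ccl2 was 13.7-fold and Mt1 at least 3.18-fold lower. Heart and muscle genes were higher in 15 of 19 tested, lower in 2 and not called in 2 (median 1.17), mostly from low levels. Tnni1 was at 3.54 and 3.20 against background (at least 12.5-fold higher), Tpm1, Acta1 and Nkx2-5 were at least 7.64-fold, 5.77-fold and at least 5.62-fold higher, and Myh11, of smooth muscle, was 10.5-fold lower. Myl3 was at least 32.4-fold lower by its brighter probe and 1.99-fold higher by the other.

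Genes often used as references did not all stay level: of 13 tested, 4 were higher, 5 lower and 4 not called (median -0.04). Ywhaz was 3.46-fold and Pgk1 2.01-fold higher, Tbp 1.79-fold, Actb at least 1.50-fold, and Gusb was 1.50-fold lower. Hprt read 2.46 and 2.48 on the Dox(+) arrays against 42.7 and 32.9 (15.2-fold lower, adjusted p = 1.62e-10 from limma), at 1.17 in Dox(−) EBs, 89.8 in βTC6 cells and 30.6 in E15.5 pancreas. The low level was thus shared by both EB groups, whose inducible cassette lies at the hprt locus, and the part of the cassette in it was not tested. Of 3 tested sex-linked genes, Uty was 3.31-fold lower and the other two did not pass the test. Among 95 list genes with more than 1 tested probe, 14 had called probes of opposite sign, so the direction of a gene read by 1 probe rests on that probe.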

How the data were processed

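RNA of the 10 samples was hybridised to 1-colour CodeLink Mouse Whole Genome arrays, 1 array per sample. The deposited values are spot intensity values for which CodeLink Expression Analysis 4.1.0.29054, per the file headers, reduced the mean of each spot by the median of its local background, and the authors divided each array by its median over 34967 discovery probes. Replicates were not pooled. The 1260 control spots, and spots marked contaminated, irregular or masked, were left out. An intensity carries no read depth, so the number of arrays limits the precision.

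Levels were floored at 0.27 and log2-transformed. Groups came from the labels. limma 3.58.1 (R 4.3.3) was fitted to all 10 arrays with 1 mean per group, eBayes with trend and robust weights, and Benjamini-Hochberg adjustment over 26709 probes, with 5 residual and a median of 6.06 prior degrees of freedom. The steps were tested on simulated data. Tables and plots used Python 3.11.15, numpy 2.4.6, pandas 2.3.3 and matplotlib 3.10.9. Of the discovery probes, 21615 had 1 gene symbol (18067 genes), 681 had several and 12671 had none. The probe with the highest mean log2 level stood for a gene. A fold against a group at background or saturated is a lower bound ("at least"), set by the dimmest probe still above background on that array, or by the saturated reading. Log2 differences of floored levels understate changes of dim probes.

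The members and the 35 gene lists were chosen with earlier results of these data known. Genes named were the 12 largest changes each way without overlap of the groups, for each list up to 6 called members, by adjusted p, Pdx1, Neurog3, Notch4, and every member of the lists of islet hormones, endocrine transcription factors, granule genes and glucose sensing, with those whose interval lay within 2-fold given as close in level. Other genes named (Ptf1a, Cpa1, Kdr, Pecam1, Ldha, Slc16a1, Hk1, Igf1, Ncam1, Nanog, the D cyclins, further gut hormones and list members that went against their list) were picked with their values already in view. The alternatives were 2 normalizations, 2 floors, 3 filters, the 4 arrays alone, another variance model, the replicate block, a 2-fold minimum, marked spots kept, all probes of a gene averaged, and each array left out.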

Additional observations from a re-analysis of the deposited data

How the results depend on the processing

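The numbers of probes higher and lower stayed between 7576 and 10631 and between 6340 and 9399 under the alternatives other than a 2-fold minimum and single arrays left out. With a 2-fold minimum, 5016 probes were higher and 4576 lower, 1 granule gene was higher and 8 were lower, and 4 endocrine transcription factors were lower. Leaving out each array in turn gave 8877 to 10676 probes higher, 7761 to 9256 lower, 12 to 13 granule genes lower and 2 to 4 islet hormones lower, the 2 without islets replicate 1. Under quantile normalization the log2 difference of Cpe was 0.01 (adjusted p = 0.938 from limma) and that of Pyy 0.02 (0.907), and with normexp correction they were 0.01 (0.932) and 0.02 (0.897). Both are saturated in both groups. The median difference of all probes was 0.091 on the log2 scale, 0.056 after quantile normalization and 0.047 with normexp.

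The replicate numbers are shared by the groups, and over probes the deviations of same-numbered Dox(+) EB and islet arrays correlated at 0.0607. With 2 arrays per group this cannot show whether same-numbered arrays shared a preparation. With the replicate block, 10137 probes were higher and 8800 lower, and the counts of the 4 endocrine lists did not change. A lowest level of 1 ended the calls of Pdx1 and Kcnj11, among other dim genes. Leaving out 1 array moved these small counts by over 1.5 times: collagen genes lower fell to 3 without Dox(+) replicate 1, Dox(+) replicate 2 or islets replicate 1, Notch genes lower to 1 without Dox(+) replicate 2, immune genes higher to 1 without Dox(+) replicate 2 or islets replicate 2, and pluripotency genes higher to 4 without either islet array. Acinar genes higher rose from 0 to 1, Ptf1a, without either βTC6 array and with the 4 arrays alone. The causes were not tested. Signal over background limits dim probes, and saturation limits bright ones.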
